A study of Oryctolagus cuniculus with 3 samples.

Results

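FGF2, IGF1 and PTGS2 were followed in day 6 rabbit embryos that had been slow-frozen or vitrified as morulae. These 3 genes code for a fibroblast growth factor, an insulin-like growth factor and the inducible prostaglandin synthase. They were chosen by name, with their log2 ratios in this same comparison already known, so their values are a description and carry no test. They had 13 probes on the array, and 10 of these were in the authors' value table, among 22839 probes in all. The table named 6498 genes.

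Rabbit morulae were recovered on day 3 of development, stored by 1 of the 2 methods, and transferred to recipient does, which were slaughtered 3 days later. The vitrified morulae had been held at 20 °C in 12.5% dimethyl sulphoxide with 12.5% ethylene glycol for 2 min and in 20% of each for 30 s before the straws went into liquid nitrogen, and after warming spent 5 min in 0.33 M sucrose. How the other morulae were slow-frozen, the rabbit strain and the number of embryos in a sample are not given in the sources used here. Each of 3 two-colour Agilent arrays set 1 RNA sample of frozen embryos against 1 of vitrified embryos, with frozen embryos in Cy5 on replicates 1 and 3 and in Cy3 on replicate 2. Fresh embryos were not analysed here. Each log2 ratio sets frozen above vitrified embryos, so that a value of -1 is a signal 2-fold lower after slow freezing.

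FGF2 is secreted without a classical signal peptide, is held by heparan sulphate and acts through tyrosine kinase receptors on the RAS and MAP kinase route. IGF1 is a circulating and local growth factor whose access to its receptor is set by binding proteins. PTGS2, also called COX-2, turns arachidonic acid into prostaglandin H, from which terminal synthases make the individual prostanoids. In early pregnancy all of these are studied as signals between the blastocyst and the uterus.

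The probes decide what each value can show, so those the results turn on are printed here 5′ to 3′ as the scanner files give them. The FGF2 probes are those at both ends of a tiled stretch of coding sequence, and the capitals mark the bases each shares with its neighbour outside the value table, 40 and 35 bases. The IGF1 probe is the brightest of 5 that begin 1 base apart in a stretch coding for E peptide sequence. Its capitals mark the 56 bases common to the 5. The PTGS2 probe lies in the coding sequence and shares no bases with the other probes of that gene.
FGF2 probe starting at base 270: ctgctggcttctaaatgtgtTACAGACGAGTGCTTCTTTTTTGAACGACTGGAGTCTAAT
FGF2 probe starting at base 355: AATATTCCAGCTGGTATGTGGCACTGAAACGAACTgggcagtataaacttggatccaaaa
IGF1 probe starting at base 343: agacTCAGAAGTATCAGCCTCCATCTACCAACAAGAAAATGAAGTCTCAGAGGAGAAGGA
PTGS2 probe starting at base 1572: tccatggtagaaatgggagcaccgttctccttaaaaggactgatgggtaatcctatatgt

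Start positions are those of the transcript in the array's design. The files also place the probes on the genome, with no assembly named. The FGF2 probe at base 355 is at chr15:98738811-98738870, and that at base 270 runs from 98708453 to 98738785, a span of 30333 bases for a 60-base probe. Its match is therefore split between exons. The IGF1 probe at base 343 is on chromosome 4 between 81695728 and 81694144, listed from the higher to the lower coordinate, and is also split. The PTGS2 coding probe is at chr16:83711629-83711688, and the other PTGS2 probes, at bases 3141 and 3242, lie in the 3′ untranslated region at chr16:83713199-83713258 and chr16:83713300-83713359. The 5 IGF1 probes measure 1 site, and the FGF2 probes 1 short stretch, so probes of a gene are not independent replicates. The IGF1 values thus cover only transcripts that hold this site, and the share of these in all IGF1 RNA was not measured. Probes of the 3 genes held between 35.0% and 43.3% G and C.

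FGF2 was the only gene of the 3 whose table probes lay below 0 on every array. Its brighter table probe, at base 355, had log2 ratios of -0.73, -1.04 and -2.11 on replicates 1, 2 and 3. The mean was -1.30 ± 0.73 (SD, n = 3), which puts frozen embryos 2.45-fold below vitrified ones. The probe at base 270 had -0.44, -1.16 and -1.66, with a mean of -1.08 ± 0.61 (SD, n = 3). Replicate 3 was the lowest and replicate 1 the highest for both probes. The remaining FGF2 probes were measured in the scanner files of replicates 1 and 3 only. On replicate 3 they had -1.34, -1.47 and -0.98 at bases 290, 310 and 330, the same sign as the table probes. On replicate 1 the first pair had -0.57 and -0.45, while the probe at base 330 had 1.41, with a scanner error of 0.55, from a signal of 13.5 in vitrified and 35.8 in frozen embryos. Its vitrified spot was not well above background on that array, so this value, the only one above 0 among the FGF2 probes, rests on a signal that is only a bound.

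The FGF2 signal was close to background, which limits its ratio. At base 355 the processed signal was 88.5 in vitrified and 53.4 in frozen embryos on replicate 1, and 90.0 and 20.8 on replicate 3. Before background subtraction the frozen spot on replicate 3 read 96.9 against 46.0 around it. The scanner's own error of the log2 ratio was 0.26 on replicate 1 and 0.33 on replicate 3. Of the probes in the value table, 8.23% were dimmer than this one. With normexp background correction, which adds an offset of 50, and loess the ratios of replicates 1 and 3 were -0.06 and -0.87, and their mean was -0.47 against -1.42 for the same arrays as deposited.

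**Figure D1:**
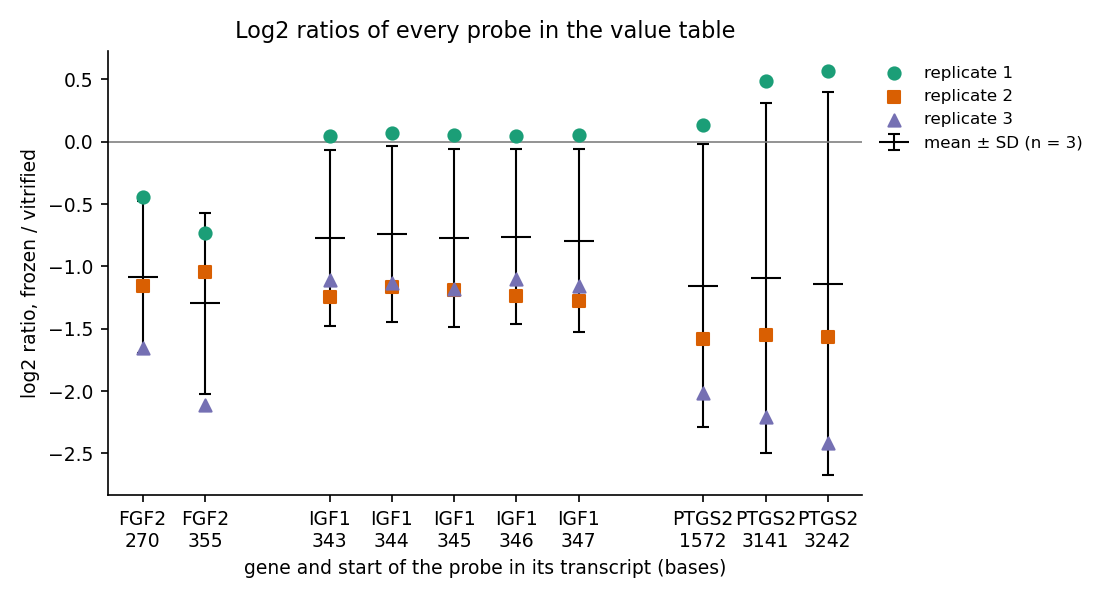
Log2 ratio of frozen over vitrified embryos (vertical axis) for the 10 probes of FGF2, IGF1 and PTGS2 in the value table, labelled by the start of the probe in its transcript; symbols are the 3 arrays and bars the mean ± SD. Replicates 2 and 3 lie at -1.04 or lower for every probe, while replicate 1 is below 0 for FGF2 and between 0.04 and 0.57 for IGF1 and PTGS2.

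IGF1 lay near 0 on replicate 1 and near -1.2 on the other arrays. The probe at base 343 had 0.04, -1.24 and -1.11 on replicates 1, 2 and 3, with a mean of -0.77 ± 0.71 (SD, n = 3), or 1.71-fold lower. That fold covers only transcripts that hold the site of these probes. The 5 probes stayed within 0.03 of each other on replicate 1, within 0.12 on replicate 2 and within 0.09 on replicate 3. The arrays thus differed far more than the probes. The scanner set every IGF1 spot well above background. At base 343 they were 319 in vitrified and 328 in frozen embryos on replicate 1, and 729 and 337 on replicate 3. Arrays were not put on a common scale here, so signals are set against each other only within an array.

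PTGS2 had opposite signs on different arrays. Its brightest probe, at base 3141, had 0.49, -1.55 and -2.20 on replicates 1, 2 and 3, with a mean of -1.09 ± 1.40 (SD, n = 3), so the SD exceeded the size of the mean. On replicate 3 this was a signal of 3983 in vitrified and 864 in frozen embryos, while on replicate 1 it was 1362 and 1907. The probe at base 3242 had 0.57, -1.57 and -2.41, and the coding probe had 0.13, -1.58 and -2.02. All 3 probes were thus higher in frozen embryos on replicate 1 and lower on replicates 2 and 3. Their values lay within 0.03 of each other on replicate 2 but within 0.43 on replicate 1 and 0.40 on replicate 3. The probe at base 3242 minus the coding probe, 1670 bases upstream, had values of 0.43, 0.01 and -0.40 on the arrays in that order. The probe nearest the 3′ end thus had the value furthest from 0 on replicates 1 and 3.

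**Figure D2:**
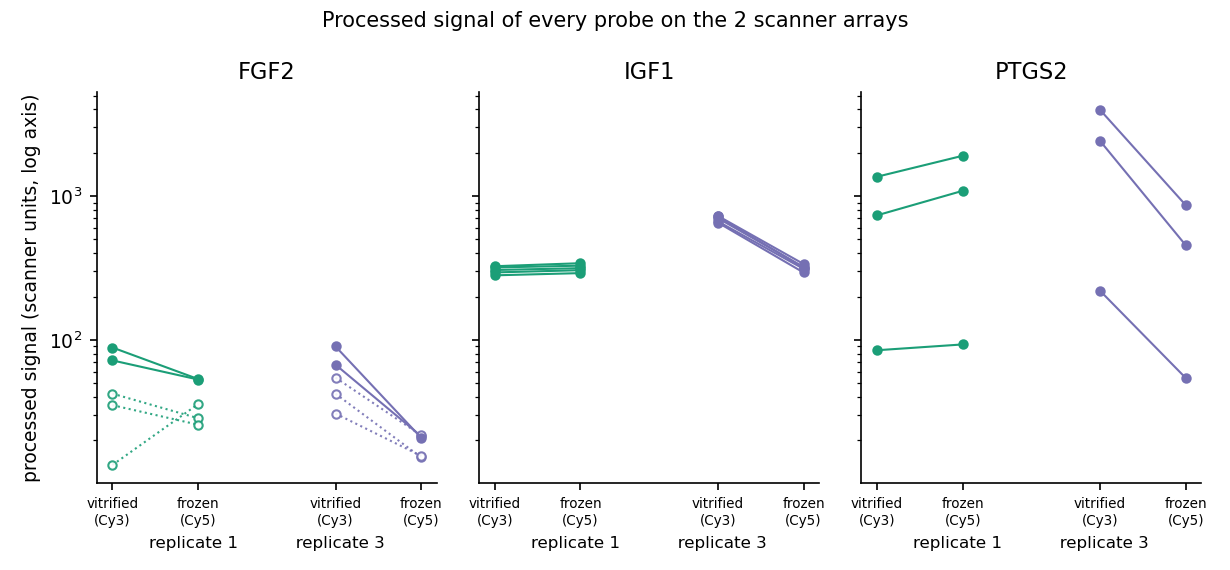
Processed signal (log axis, scanner units) of the 13 probes in vitrified and frozen embryos on replicates 1 and 3, 1 line per probe; open circles and dotted lines are the 3 FGF2 probes outside the value table. IGF1 lines are flat on replicate 1 and go down on replicate 3, PTGS2 lines go up on replicate 1 and down on replicate 3, and FGF2 lines go down on both except for the probe that was not well above background.

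The value table was fitted as a whole with limma, each probe against 0 over the 3 arrays and with Benjamini-Hochberg adjustment. At an adjusted p under 0.05 it called 0 of 22839 probes (0%), and 1020 had an unadjusted p under 0.05. None of the 10 member probes was called, and limma with a trend over signal and robust variances also called 0 probes (980 unadjusted). Of the member probes 2, both of FGF2, were below 0 on all 3 arrays with a mean at least 1.5-fold lower; so were 1.24% of all probes in the table. All 10 were at -1 or lower on both replicates 2 and 3, as were 0.556% of the table's probes. Without replicate 1 the fit called 796 probes, 2.42% of the table as lower and 1.06% as higher, and the 10 member probes were among the lower. Since values of this comparison chose the genes, nothing is read from these counts.

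**Figure D3:**
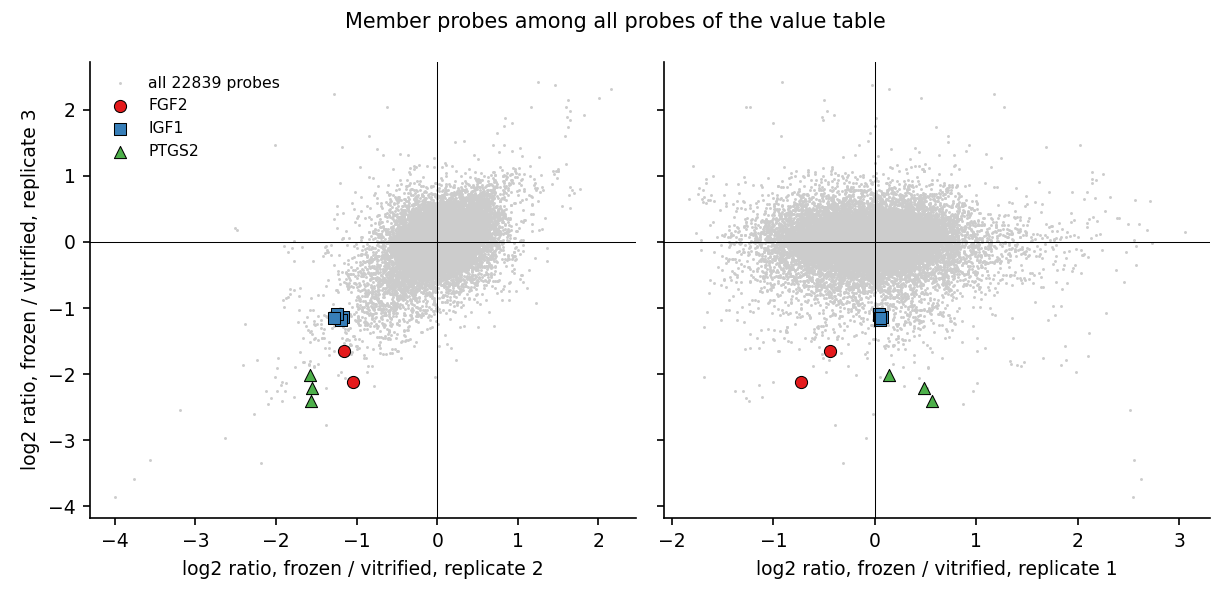
Log2 ratio of replicate 3 (vertical axis) against that of replicate 2 (left) and replicate 1 (right) for all probes of the value table in grey, with the probes of FGF2, IGF1 and PTGS2 in colour. The members lie at the lower left against replicate 2, and on either side of 0 on the axis of replicate 1.

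The direction of replicate 2 in the value table is not stated and was read from spike-in probes. Replicates 1 and 3 correlated at 0.993 over 10 of these and replicates 2 and 3 at -0.998, so the column appears to have been turned to frozen over vitrified, if the spike-in mixes followed the dyes. With its sign turned, FGF2 had -0.60 and PTGS2 -0.06, and IGF1 changed sign to 0.06. Over all table probes, replicates 2 and 3 correlated at 0.48, replicates 1 and 2 at -0.36 and replicates 1 and 3 at -0.01, as descriptions over probes that share arrays. The scanner files of replicates 1 and 3 set all 22839 table probes well above background. The arrays are labelled as biological replicates without a word on how embryos were pooled, so the SD is the spread between these arrays.

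Between the 3 genes, the mean differences were smaller than their spread over the arrays. FGF2 minus IGF1, by their brightest probes, was -0.77, 0.20 and -1.0 on replicates 1, 2 and 3, a mean of -0.52 ± 0.64 (SD, n = 3). FGF2 minus PTGS2 was -1.21, 0.51 and 0.09, a mean of -0.21 ± 0.90. IGF1 minus PTGS2 was -0.44, 0.31 and 1.09, a mean of 0.32 ± 0.77. No pair kept 1 order on every array.

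The genes nearest to each of the 3 were taken by Euclidean distance over the 3 arrays among 6495 other named genes. Nearest to FGF2 were ITGA1, a collagen-binding integrin (distance 0.46), APOB, the core protein of low-density lipoprotein (0.57), and TF, transferrin (0.69). ITGA1 had -0.52, -1.07 and -1.70 on replicates 1, 2 and 3. Nearest to IGF1 were KLK4, a serine protease (0.21), CLTRN (0.24) and SERPINF2, the plasmin inhibitor (0.31). KLK4 had 0.15, -1.29 and -0.94. Its probe had a mean log2 signal of 15.7, against 8.65 for the IGF1 probe, and what the KLK4 probe measures was not tested. Nearest to PTGS2 were APOA1, the main protein of high-density lipoprotein (0.17), ANXA3, an annexin (0.41), and DNAJB7 (0.44). APOA1 had 0.51, -1.38 and -2.20, close to PTGS2 on each array. With 3 arrays such a distance describes likeness of values and no more.

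The other genes of these routes came from lists of 135 genes, of which 97 had a probe on the array and 62 were in the value table. In limma's fit 0 of the 62 passed the adjusted threshold in either direction, and 7 had an unadjusted p under 0.05. Of the 62, 32 lay below 0, and their median log2 ratio was -0.01. Over all named genes the median was also -0.01, with 53.2% below 0. None of the 62 was at -1 or lower on both replicates 2 and 3. Without replicate 1 the fit called 3 of the 62, each lower, namely GPC4, PLA2G4A and PPARG, beside 134 lower and 66 higher of the 6498 named genes.

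Of the FGF ligands and receptors only 3 of 19 were measured in the table. FGFR1, a receptor of FGF2, had -0.54, 0.24 and -0.07 on replicates 1, 2 and 3, a mean of -0.12 ± 0.39 (SD, n = 3). FGFR4 had 0.10 ± 0.07 and KLB, the co-receptor of endocrine FGFs, had -0.30 ± 0.20. Their median was -0.12, and 0.09 without replicate 1. FGFR2 had 1 probe outside the table. Of the 17 genes that carry, make or alter heparan sulphate, 7 were measured. By their brightest probes they lay between -0.46 for the glypican GPC4 and 0.41 for the syndecan SDC4, with NDST1 at the median of -0.08. The 6 probes of the glypican GPC3 had means from -0.82 to 0.19. Of the 11 measured genes of FGF signal transmission 6 lay below 0, the lowest being the adaptor FRS2 at -0.26, with the phosphatase PTPN11 at the median of -0.03.

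Of 15 FGF target genes and inhibitors 6 were measured, and 5 of them lay above 0, with a median of 0.11. The exception was ETV4, a transcription factor induced by FGF signals, with -1.04, -0.06 and -0.63 on replicates 1, 2 and 3 and a mean of -0.58 ± 0.49 (SD, n = 3). Its relative ETV5 had 0.15 ± 0.21. DUSP4, a phosphatase of MAP kinases, had 0.12 ± 0.50. SPRED1, an inhibitor of RAS signalling, had 0.11 ± 0.35 by the brighter of its 2 probes and -0.07 by the other. The early response genes EGR1 and IER3 had 0.05 ± 0.26 and 0.19 ± 0.11.

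**Figure D4:**
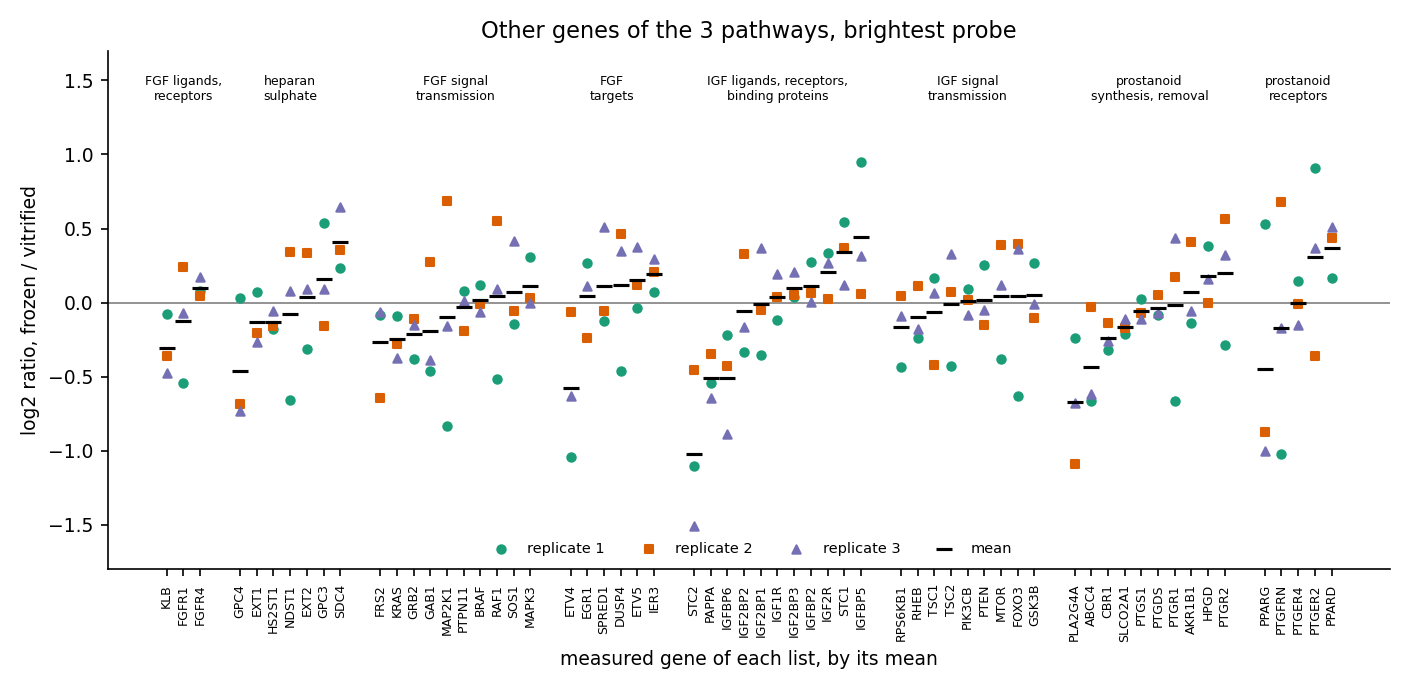
Log2 ratio of frozen over vitrified embryos (vertical axis) for 61 of the 62 measured genes of the FGF, IGF and prostanoid lists, ordered by mean within each list; symbols are the 3 arrays and bars the mean. Means run from -1.02 for STC2 to 0.44 for IGFBP5, and in most genes the arrays lie on both sides of 0.

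The IGF axis had 11 of 18 genes measured, with a median of 0.04 and 5 below 0. IGF1R, the receptor of IGF1, had -0.11, 0.04 and 0.20 on replicates 1, 2 and 3, a mean of 0.04 ± 0.16 (SD, n = 3). IGF2R, which takes IGF2 into the cell for degradation, had 0.21 ± 0.16 from a dim probe (mean log2 signal 5.48). Among the binding proteins IGFBP2 had 0.12 ± 0.14, IGFBP5 had 0.44 ± 0.46 and IGFBP6 had -0.51 ± 0.34. PAPPA, the protease that frees IGF from its binding proteins, had -0.51 ± 0.15 from a dim probe (mean log2 signal 4.92). STC2, an inhibitor of that protease, had the lowest mean of the 62 genes, with -1.10, -0.45 and -1.51 and a mean of -1.02 ± 0.53 (limma, adjusted p = 0.81). Its relative STC1 had 0.34 ± 0.21. The RNA-binding proteins IGF2BP1, IGF2BP2 and IGF2BP3 had -0.01 ± 0.36, -0.06 ± 0.34 and 0.10 ± 0.09. IGF2 itself was not among the named probes. The 9 measured genes of IGF signal transmission had means from -0.16 for the kinase RPS6KB1 to 0.05 for GSK3B, with PIK3CB at the median of 0.01.

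Of 18 genes that make or remove prostanoids 10 were measured, 7 of them below 0, with a median of -0.04. PLA2G4A, the phospholipase that releases the arachidonic acid PTGS2 uses, had -0.24, -1.09 and -0.68 on replicates 1, 2 and 3, a mean of -0.67 ± 0.43 (SD, n = 3; limma, adjusted p = 0.92), and 0.06 with the sign of replicate 2 turned. Of the probes in the value table, 9.71% were dimmer than that of PLA2G4A. PTGS1, the constitutive isoform of the synthase, had 0.02, -0.07 and -0.11 and a mean of -0.05 ± 0.07. PTGDS, which makes prostaglandin D, had -0.03 ± 0.08, and AKR1B1, an aldose reductase that can make prostaglandin F, had 0.07 ± 0.29. Of the genes that reduce or oxidise prostaglandins, CBR1 had -0.24 ± 0.09, HPGD 0.18 ± 0.19, PTGR1 -0.02 ± 0.57 and PTGR2 0.20 ± 0.44. The carriers SLCO2A1 and ABCC4 had -0.17 ± 0.05 and -0.44 ± 0.35.

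The prostanoid receptors had 5 of 12 genes measured, with a median near 0. PTGER4, a receptor of prostaglandin E, had 0.15, -0.01 and -0.15 on replicates 1, 2 and 3. PTGER2, another, had 0.91, -0.36 and 0.37 from a probe brighter than 99.9% of the table, while its other 5 probes were not well above background in any channel of the scanner files; what that bright probe measures was not tested. PTGFRN, a partner protein of the prostaglandin F receptor, had -0.17 ± 0.85 (SD, n = 3). The nuclear receptors PPARD and PPARG had 0.37 ± 0.18 and -0.45 ± 0.85, and PPARG, like PTGS2, lay on both sides of 0, at 0.53, -0.87 and -1.0 in the order of the arrays.

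Markers of the cell types that the embryo samples could hold are given beside these values. Trophoblast and epiblast markers were present, with 7 of 12 and 3 of 10 measured, among them KRT8, KRT19 and POU5F1. Of 14 hypoblast markers 7 were measured, and their median ran from -0.13 for replicate 1 through -0.81 for replicate 2 to -1.37 for replicate 3. Their summed signal was 2325 in vitrified and 3005 in frozen embryos on replicate 1, and 7210 and 2555 on replicate 3. On replicate 1, 3 of these 7 lay above 0 (APOA1, RBP4 and DKK1), and they had -1.37 or lower on the other arrays. GATA4, APOB, APOE and CER1 were below 0 on all 3 arrays, GATA4 at -0.50, -0.05 and -0.38 and CER1 at -0.59, -0.14 and -0.93. The trophoblast median was -0.16, 0.24 and 0.05, and the epiblast median -0.75, -0.06 and -0.63 on replicates 1, 2 and 3. Of the 3 epiblast genes, POU5F1 had -0.75, -0.52 and -1.62, below 0 on every array, and DPPA5 had -0.15, 0.13 and 0.42. ETV4, listed above as an FGF target with a dim probe, set the median on replicates 2 and 3.

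Of 13 blood, immune and endothelial markers 6 were measured, and their summed signal was 8539 in vitrified and 37727 in frozen embryos on replicate 1, and 58984 and 8153 on replicate 3. The globins set those sums. HBA, the alpha chain, had 1.88, -2.23 and -1.79 on replicates 1, 2 and 3, and HBB2, a beta chain, had 2.62, -3.77 and -3.59. VWF, an endothelial protein, had 0.09, -0.79 and -0.66, while CD68 and CD14 of macrophages stayed between -0.24 and 0.13. S100A9, a protein of neutrophils and monocytes, had 0.54, -0.15 and 0.25. Of 12 markers of uterine epithelium and stroma 4 were measured, with medians of -0.12, -0.20 and -0.11 on the 3 arrays and summed signals of 1043 and 723 in vitrified and frozen embryos on replicate 1 and 361 and 336 on replicate 3. In bulk samples fewer cells of a type and less RNA per cell cannot be told apart, and the part of these cells in the values of FGF2, IGF1 and PTGS2 was not tested.

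**Figure D5:**
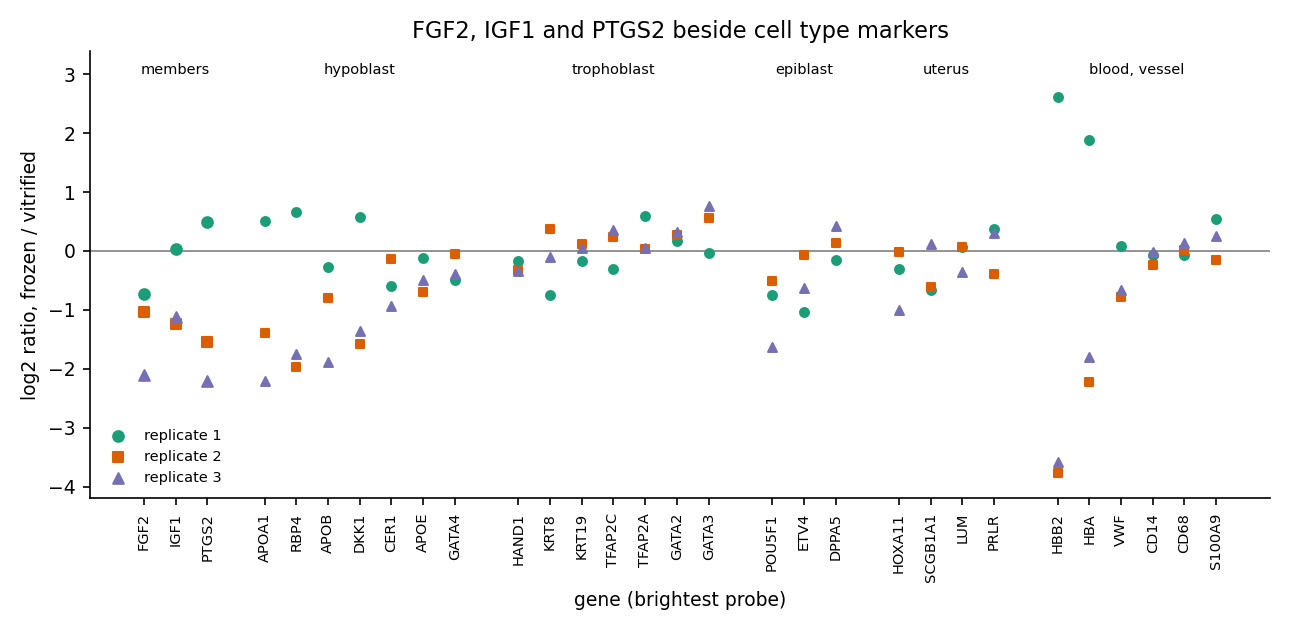
Log2 ratio of frozen over vitrified embryos (vertical axis) on each array for FGF2, IGF1 and PTGS2 and for the measured markers of 5 cell type lists, each by its brightest probe. Replicate 1 is above 0 and replicates 2 and 3 below -1 for PTGS2, the globins HBA and HBB2 and 3 of the 7 hypoblast genes (APOA1, RBP4 and DKK1). IGF1 is also below -1 on replicates 2 and 3 but near 0 on replicate 1 (0.04). GATA4, APOB, APOE and CER1 are below 0 on all 3 arrays.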

How the data were processed

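Total RNA (100 ng per sample) was labelled and hybridised to 3 two-colour arrays. The scanner images went through Agilent Feature Extraction 10.10.1.1 (version per the submitters' processing notes), which gives, per the file headers, a background-subtracted, detrended and dye-normalized intensity per channel and a log10 red to green ratio. The authors deposited these intensities for replicates 1 and 3 and a table of log2 ratios for the 3 arrays, with scale and direction unstated. The table equalled log2 of processed red over green on replicates 1 and 3 within 3.1e-06, that is frozen over vitrified. For replicate 2 the table alone was used. The scanner error, a deposited value on the log10 scale, was turned to log2.

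Of 22865 table rows 26 were controls. Probes were named through accessions, gene identifiers, symbols or shared transcripts in the RefSeq table of assembly mOryCun1.1 (14101 probes). Where a gene had several probes, the brightest stood for it. The fit over all probes used lmFit and eBayes of limma 3.58.1 under R 4.3.3, at a threshold of 0.05, and was tested on simulated data. The simulated noise was independent and had the same SD for every probe, unlike these arrays, so it checked the calculation only. Joins were made with pandas 2.3.3 (Python 3.11.15). Genes named in the text are the members, every measured gene of the FGF, IGF and prostanoid ligand, receptor, enzyme and target lists, the ends and the middle of the other lists (1 such gene is not reported here), and the 3 nearest genes; markers and the genes of the closing section were named after their values were seen. The members and lists were chosen with earlier results of these data known. The number of arrays limits the precision.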

Additional observations from a re-analysis of the deposited data

How the results depend on the processing

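Of 71 alternative values for 12 results, 66 lay within the spread between arrays or, for the count of called probes, matched the count. Within the spread means no further than 1 SD from the main value. Leaving out 1 of 3 arrays cannot move a gene's mean that far, so those values of FGF2, IGF1 and PTGS2 were bound to lie within it. The scanner values of replicates 1 and 3 repeat those without replicate 2 and add no check. The count of called probes ranged from 0 to 796 when 1 array was left out, the highest without replicate 1, and was 0 with the sign of replicate 2 turned, an intensity trend, a dye covariate, or the dimmest probes left out (17129 kept). FGF2 moved to -0.47 with normexp and loess on replicates 1 and 3, an alternative that changes background and normalization together, and the cause was not tested. IGF1 moved to 0.058 with the sign of replicate 2 turned. PTGS2 went from -1.09 to -0.056 with the same turn, which counted as within the spread because its SD was 1.40. The median of the 3 FGF ligands and receptors ranged from -0.28 to 0.085 when 1 array was left out. Leaving out 1 array, FGF2 ranged from -1.58 to -0.89, IGF1 from -1.18 to -0.54 and PTGS2 from -1.88 to -0.53, each lowest without replicate 1. The fit of ratios against 0 already pairs the samples of each array, and no further replicate block could be fitted. FGF2 is limited by its low signal over background as well as by the spread between arrays.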

Other observations

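Beside FGF2, IGF1 and PTGS2, 32 named genes lay at -1 or lower on both replicates 2 and 3 by their brightest probe, and 26 of them were above 0 on replicate 1. They include secreted and plasma proteins and a red cell enzyme, named here after their values were seen. CPS1, an enzyme of the urea cycle, had 0.97, -2.12 and -2.26 on replicates 1, 2 and 3, FGB, the beta chain of fibrinogen, had 0.56, -1.70 and -1.66, and ALAS2, the haem synthesis enzyme of red cells, had 0.34, -1.73 and -1.21. SERPINH1, a collagen chaperone, had 0.67, -1.48 and -1.13. These examples were all above 0 on replicate 1. PHGDH and PSAT1, with the lowest means of the 32 genes, were below 0 on every array. PHGDH had -1.69, -2.01 and -2.05 and PSAT1 had -1.01, -1.93 and -2.12 on replicates 1, 2 and 3. Over the 127 probes with such values, 75.6% were above 0 on replicate 1, against 48.6% of all probes. No test was made of this split, since the same arrays showed it.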
